A study of Mus musculus with 10 samples.

Results

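The subunits of the mitochondrial respiratory chain and of ATP synthase were examined in mouse secondary palate at stage E14.5, when the palatal shelves meet and fuse. The mutant group held 5 samples of genotype Tgfbr2 fl/fl with Wnt1-Cre, a recombinase that acts in the neural crest and its descendants, so that floxed alleles of the type II receptor for TGF-beta are deleted there. The control group held 5 samples of genotype Tgfbr2 fl/fl without Cre, which the titles call wildtype, and both groups were C57B6. Epithelium, endothelium and muscle fibres of the palate do not come from the neural crest and keep the receptor gene. RNA of each sample was hybridised to an Affymetrix mouse array, and the deposited values are log2 values made with RMA, a method that corrects background, equalises the distribution of the arrays and summarises the probes of a probe set. Members were all genes with a probe set that the platform annotation ties to exactly 1 symbol, where that symbol starts with Nduf, Uqcr, Cox4 to Cox8 or Atp5, or is Sdha, Sdhb, Sdhc or Sdhd, with the assembly factors (Ndufaf) and Ndufa4l2 left out. This gave 81 of 18194 genes, with 168 probe sets, and each gene was read on the brightest of its probe sets by the mean of all 10 arrays. Ndufa11 and Ndufs6, whose probe sets also name Ndufa11b or Ndufs6b, were thereby left out. Cyc1, the cytochrome c1 of complex III, does not carry one of these symbols and was left out too. Complex I had 35 members, complex II 4, complex III 8, complex IV 17 and complex V 17.

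The respiratory chain moves electrons from NADH and succinate to oxygen. Complex I oxidises NADH, complex II oxidises succinate, complex III passes electrons from ubiquinol to cytochrome c, and complex IV reduces oxygen. Complexes I, III and IV pump protons across the inner membrane, and complex V, the ATP synthase, uses the gradient to make ATP. Most subunits are encoded in the nucleus and a few in mitochondrial DNA, and some subunits of complex IV have separate isoforms for striated muscle, testis or low oxygen.

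The arrays differed little in scale, with medians of 6.4 or 6.5 on the log2 scale, and no pair shared more than 26.8% of its values. Tgfbr2 itself read 10.7 or 10.8 in the mutants and 10.5 to 10.8 in the controls, and the groups overlapped. The sources used here do not say whether its probe set lies in the deleted part, so this value does not check the labels. Markers of palate mesenchyme (14 of 14 measured, among them Osr2, Prrx1 and Msx1) averaged 10.7 to 10.9 in mutant and 10.6 to 11.0 in control arrays. Single markers differed in both directions, with 8 higher and 6 lower in mean value in mutants. Control replicate 1 stood farthest out on the first principal component (35.5% of the variance), at 27.3, against 8.03 to 16.0 for the other controls and -21.5 to -9.79 for the mutants. Nothing in the labels states that the numbered samples are separate embryos, and p-values thus cover only the spread among these samples, which may be technical. In bulk tissue, fewer cells of a type and less RNA per cell cannot be told apart.

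Respiratory chain genes were slightly lower in mutant palate as a group, and few of them passed the test alone. Of the 81 genes, 5 fell and 0 rose at an adjusted p under 0.05 (limma, Benjamini-Hochberg over all 18194 genes). This is 6.17% of the members called lower, against 5.36% of all genes called lower (2.91% higher), so the share of calls was near the background. The median log2 difference of the members, mutant minus control, was -0.14, a change of -9.25%, while the median of all genes was 0.00. With arrays centred on their medians these became -0.06 and 0.08, and the share of all calls that are lower went from 64.8% to 27.0%. A negative difference was found for 75 of 81 members, against 48.6% of all genes. The 81 members were read on the same 10 arrays and are not separate observations. For 37 of them control replicate 1 alone gave the highest value. The members are bright on this array, with a median level of 11.27 against 7.45 for all genes, and 71 of them had a mean of at least 10. Among the 2335 genes with a mean of at least 10, the median difference was -0.04, 57.1% were negative, 5.95% were called lower and 1.84% higher. The 71 members in this range had a median of -0.14, with 69 negative. At an unadjusted p under 0.05, 31 members (38.3%) were lower and 1, Cox8c, was higher. Of all genes 15.1% were lower and 10% higher, and 18.6% of the bright genes were lower. The values carry 1 decimal, so differences of this size span only a few rounding steps in each array, and the number of arrays limits the precision.

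**Figure D1:**
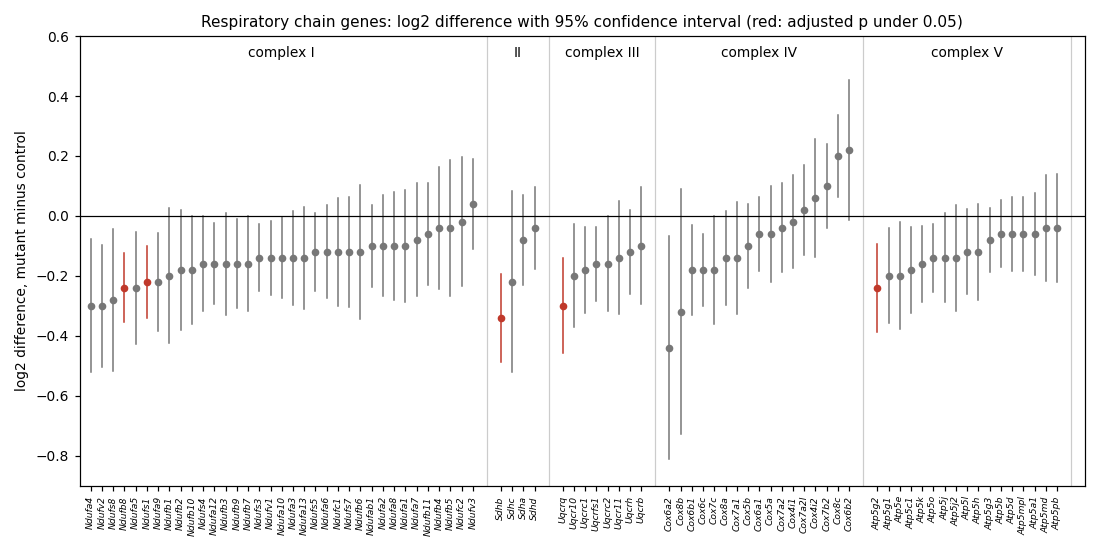
Log2 difference (mutant minus control) of the 81 respiratory chain genes, sorted within each complex; points are fitted differences, vertical lines are 95% confidence intervals, and red marks the 5 genes with an adjusted p under 0.05. Points lie below 0 for 75 of 81 genes, and the genes above 0 are mainly complex IV isoforms.

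The 5 genes that fell belong to complexes I, II, III and V, and their levels were 14.1% to 21.0% lower. Sdhb, the iron-sulphur subunit of succinate dehydrogenase, read 11.0, 10.9, 11.0, 11.1 and 11.0 in mutant replicates 1 to 5 and 11.5, 11.4, 11.3, 11.2 and 11.3 in control replicates 1 to 5. Every mutant array lay below every control array, and the difference was -0.34 (SE 0.07, limma adjusted p = 0.0131). Its call remained when each of the 10 arrays was left out in turn. Uqcrq, a small subunit of complex III, read 10.3, 10.3, 10.1, 10.2 and 10.2 in mutants and 10.6, 10.7, 10.4, 10.4 and 10.5 in controls. The groups did not overlap here either, and the difference was -0.30 (SE 0.07, limma adjusted p = 0.0297), but its 3 dimmer probe sets, with means of 5.12 to 5.78, gave 0.08, -0.16 and 0.16. With the mean of its probe sets Uqcrq differed by -0.06 (limma adjusted p = 0.613).

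**Figure D2:**
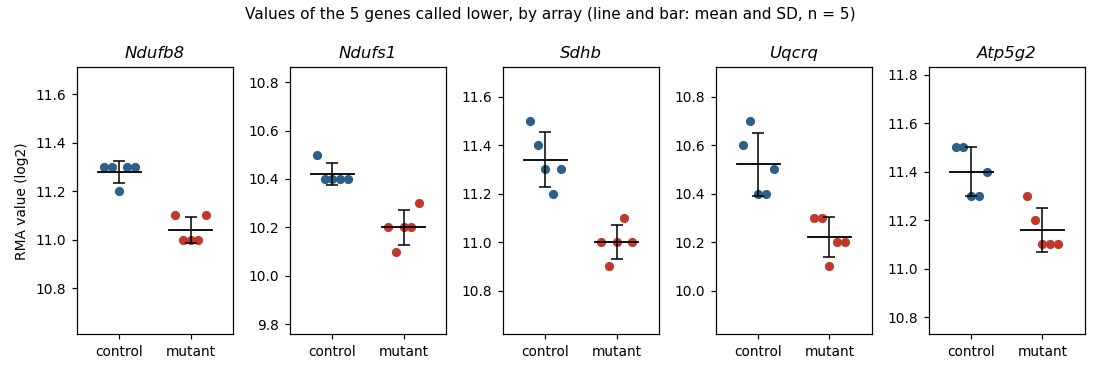
RMA values (log2) of the 5 respiratory chain genes called lower, with 1 point per array (control in blue, mutant in red) and the mean and SD over 5 arrays as lines. The groups are separate for Ndufb8, Ndufs1, Sdhb and Uqcrq, and meet at 11.3 for Atp5g2; each panel spans 1.1 log2 units and does not start at 0.

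Complex I contributed Ndufb8 and Ndufs1. Ndufb8, an accessory subunit of the membrane arm, read 11.1, 11.0, 11.0, 11.0 and 11.1 in mutants and 11.3, 11.3, 11.2, 11.3 and 11.3 in controls, a difference of -0.24 (SE 0.05, limma adjusted p = 0.0195). Its other, dimmer probe set gave -0.20. Ndufs1, the largest iron-sulphur subunit of the arm that oxidises NADH, read 10.2, 10.1, 10.2, 10.2 and 10.3 in mutants and 10.5, 10.4, 10.4, 10.4 and 10.4 in controls, a difference of -0.22 (SE 0.06, limma adjusted p = 0.0325). Both genes had no overlap between the groups. Atp5g2, which encodes the c subunit of the ATP synthase rotor, read 11.3, 11.2, 11.1, 11.1 and 11.1 in mutants and 11.5, 11.5, 11.3, 11.3 and 11.4 in controls, so that the highest mutant met the lowest controls. Its difference was -0.24 (SE 0.07, limma adjusted p = 0.0476), just inside the threshold, and its other probe sets, with means of 5.52 and 2.81, gave 0.00 and -0.02. With their mean it differed by -0.09 (limma adjusted p = 0.420).

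Promoters of respiratory genes are known for sites of the factors NRF1, GABP, YY1 and ERR, and since most members had small differences in 1 direction their promoters were searched for short cores of these sites. RefSeq (GRCm38.p6) gave windows of 250 bases before to 50 after the start for 67 of the 81 genes, 72 windows in all. On either strand the NRF1 core GCATGCG was in 13.9% of these windows, against 3.58% of all 32851 windows of the table. The GABP core CCGGAAG was in 23.6% against 8.86%, the YY1 core GATGGCG in 13.9% against 3.49%, and the ERR core AAGGTCA in 11.1% against 4.72%. No core holds another, GCATGCG can overlap its own complement, and members' windows had a median GC content of 58.5% against 52.7%. Members with and without the NRF1 core both had a median difference of -0.14, as did those with and without the GABP core. For YY1 and ERR the medians were -0.12 with the core and -0.14 without. A match describes letters only.

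The stretches of 120 bases just before the start are shown for the genes called lower that have a window in the table, because they let the called genes be compared with and without a core. They are written 5′ to 3′ along the gene, with matches to the searched cores in capitals.
Sdhb, chr4:140961151-140961270, plus strand: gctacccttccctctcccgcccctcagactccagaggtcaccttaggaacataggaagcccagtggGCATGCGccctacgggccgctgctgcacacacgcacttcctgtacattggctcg
Atp5g2, chr15:102671048-102671167, minus strand: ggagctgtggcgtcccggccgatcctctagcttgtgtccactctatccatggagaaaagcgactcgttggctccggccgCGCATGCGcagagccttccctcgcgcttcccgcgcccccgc
Ndufb8, chr19:44555443-44555562, minus strand: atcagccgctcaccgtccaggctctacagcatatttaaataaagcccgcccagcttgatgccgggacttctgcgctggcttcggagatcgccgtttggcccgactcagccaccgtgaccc
Sdhb and Atp5g2 hold the NRF1 core, in Atp5g2 on both strands in overlap, and Ndufb8 holds none of the 4 cores in its window. Sdhb also holds the GABP core 7 bases into the transcript. The 3 genes differed by -0.34, -0.24 and -0.24 in the order of the lines, so the gene without a core had the same difference as 1 of those with it.

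The number of members called lower depended on single arrays, and so did the number over all genes. It was 1 without mutant replicate 3, 2 without mutant replicate 4 or without control replicate 5, and 3 without any of mutant replicates 2 and 5 and control replicates 2, 3 and 4. Without mutant replicate 1 it was 4 and without control replicate 1 it was 7 (6.1% of all genes were then lower), with Atp5g2 no longer called and Ndufv2, Cox6a2 and Uqcrc1 added. Over all genes, 975 were lower in the full fit, 457 without mutant replicate 3, 702 without mutant replicate 4, 667 without control replicate 5 and 1109 without control replicate 1. Without mutant replicates 1, 2 and 5 these counts were 556, 567 and 590, and without control replicates 2, 3 and 4 they were 782, 539 and 801. Ndufs1 lost its call in 7 of these 10 fits, Uqcrq in 5, Atp5g2 in 9 and Ndufb8 in 1. The median difference of the 81 genes moved less, from -0.155 to -0.105 over the 10 fits, and its size was smallest without control replicate 1, where 69 of 81 were negative.

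Of the 35 complex I genes, 2 fell (5.71%, near the 5.36% of all genes), 0 rose and 33 were not called. Negative differences were found for 34, and the median of the complex was -0.14. The core subunits Ndufv1, which binds NADH, and Ndufs7, an iron-sulphur subunit near the quinone site, differed by -0.14 (95% confidence interval -0.26 to -0.02, limma adjusted p = 0.146) and -0.12 (-0.30 to 0.06, limma adjusted p = 0.401). All 3 probe sets of Ndufv1 gave negative differences, from -0.22 to -0.14. Groups did not overlap for 4 genes of this complex, which besides Ndufb8 and Ndufs1 were Ndufs3 and Ndufv2, named after their values were seen. Ndufv2, a flavoprotein-associated core subunit, read 11.5 in mutant replicate 1, 11.4 in the other mutants, 12.1 in control replicate 1 and 11.6 or 11.7 in the other controls. Its difference was -0.30 (limma adjusted p = 0.0706), and it was called without control replicate 1. Over all members 7 genes (8.64%) had every mutant array below every control array, against 4.93% of all genes and 6.72% of genes with a mean of at least 10. None had every mutant array above every control array, against 1.82% of all genes.

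Ndufa4 carries a complex I name but is now placed with complex IV. It read 11.1 to 11.4 in mutants and 11.3 to 11.9 in controls, with control replicate 1 the highest, and its difference was -0.30 (interval -0.52 to -0.08, limma adjusted p = 0.0900). Ndufv3, a small accessory subunit, was the complex I gene with a positive difference, 0.04. Ndufb4 was read on a probe set with a mean of 4.20, near the low end of the arrays, because probe sets shared with Ndufb4b and Ndufb4c were left out by the rule.

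Complex II showed unequal members. Beside Sdhb, the flavoprotein Sdha differed by -0.08 (interval -0.23 to 0.07), the membrane anchor Sdhd by -0.04 (-0.18 to 0.10) and the other anchor, Sdhc, by -0.22 (-0.52 to 0.08), none of them called (limma adjusted p = 0.509, 0.735 and 0.349). Sdhc read 10.1 in mutant replicate 3 and 10.6 in mutant replicate 2, while the other mutants read 10.9 and the controls 10.8 to 11.0. The groups therefore overlapped for Sdhc, and its difference rested on those arrays. Differences between the members of the complex were not tested.

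All 8 complex III members had a negative difference, from -0.30 to -0.10 with a median of -0.16. Besides Uqcrq none was called. The core proteins Uqcrc1 and Uqcrc2 differed by -0.18 and -0.16, and Uqcrfs1, the Rieske iron-sulphur protein, by -0.16 (limma adjusted p = 0.113, 0.198 and 0.102). Uqcrfs1 read 10.7 or 10.8 in mutants and 10.8 to 11.0 in controls, so the groups touched at 10.8. Uqcrc1 read 11.0 to 11.2 in mutants and 11.3 or 11.4 in controls, apart from control replicate 1 at 11.1, and it was called without that array.

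No complex IV gene was called, and this complex had the median difference nearest 0 of the 5, -0.06. It was -0.115 without control replicate 3, where it was still nearest 0, against -0.135 for complex V. The median turned to 0.02 when arrays were centred on their medians, a step that adds 0.08 to the difference of every gene alike. Of its 17 genes, 12 were negative and 5 positive. At an unadjusted p under 0.05, 4 were lower (23.5%) and 1 higher. The share lower was 15.1% of all genes, 18.6% of the bright genes and 38.3% of all members. Cox6c, a small nuclear-encoded subunit, had the smallest p of the complex. It read 12.2 in mutant replicate 4 and 12.1 in the other mutants, against 12.2 to 12.4 in controls (-0.18, limma adjusted p = 0.0661), although its other bright probe set, with a mean of 11.68, gave 0.04.

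The 10 complex IV genes outside the tissue isoforms had a median of -0.08, with 9 negative. At an unadjusted p under 0.05, 3 of them (30%) were lower, against 15.1% of all genes, 18.6% of the bright genes and 38.3% of all members. Some were near 0 while others matched the median of all members. Cox4i1, an early-assembling subunit, read 12.6 in all 5 mutants and 12.4 to 12.8 in controls, a difference of -0.02 (interval -0.18 to 0.14) whose sign changed in several alternative fits. Cox5a and Cox5b differed by -0.06 and -0.10, Cox6a1 by -0.06, Cox7a2 by -0.04 and Cox7a2l, a factor that joins complexes III and IV, by 0.02, with intervals that include 0 for each of these genes. Cox6b1 and Cox8a differed by -0.18 and -0.14 (limma adjusted p = 0.131 and 0.252). Cox7c, named after its values were seen, differed by -0.18 (limma adjusted p = 0.199), with control replicates 1 and 2 at 8.1 and 7.9 and the other 8 arrays at 7.6 or 7.7. The 95% confidence intervals of only 2 of the 81 members, Cox6a2 and Cox8b, reached a 1.5-fold decrease.

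Isoforms of complex IV for special tissues had differences of both signs. The 7 of them had a median level of 6.21, against 12.38 for the other 10 genes of the complex, and 0 of 7 were called. Cox6a2, the heart and skeletal muscle form of subunit VIa, read 6.1, 6.0, 6.0, 6.6 and 6.0 in mutants and 6.1, 6.5, 6.5, 6.7 and 7.1 in controls. Its difference was -0.44 (interval -0.81 to -0.07, limma adjusted p = 0.133), its other probe set gave -0.60, and it was called without control replicate 1. Cox8b, the muscle form of subunit VIII, read 5.2 to 5.5 in mutants and 5.3 to 5.6 in controls except for control replicate 5, at 6.5 (-0.32, limma adjusted p = 0.313). Cox7a1, another muscle form, read 4.0 to 4.3 and 4.1 to 4.5, near the low end of the arrays.

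Skeletal muscle markers were lower in mutants and, across arrays, high in some of the arrays where Cox6a2 and Cox8b were high. Of 29 markers measured, 20 were lower (69.0%, against 5.36% of all genes) and 0 higher in mutants. Their median deviation from each gene's mean over the 10 arrays was -0.78, -1.53, -1.51, 0.51 and -0.83 in mutant replicates 1 to 5 and 0.51, 1.00, 0.75, 0.36 and 1.83 in control replicates 1 to 5. Mutant replicate 4, the mutant highest in muscle markers, was the mutant highest in Cox6a2. Control replicate 5, the array highest in muscle markers, was the array highest in Cox6a2 and Cox8b. Other values did not follow this order: control replicate 1, at the same muscle deviation as mutant replicate 4, read 6.1 for Cox6a2, and control replicate 5 had the lowest control value of Cox7a1, 4.1. Cox6a1, the broadly expressed counterpart of Cox6a2, read 13.1 to 13.3 in all 10 arrays. With the muscle median as a covariate the difference of Cox6a2 was 0.16 and that of Cox8b 0.21, and 0 members were called, but that covariate is itself strongly related to group (correlation -0.80) and that fit called 1 gene of 18194. The part of muscle in the differences of the other members was not tested beyond this.

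**Figure D3:**
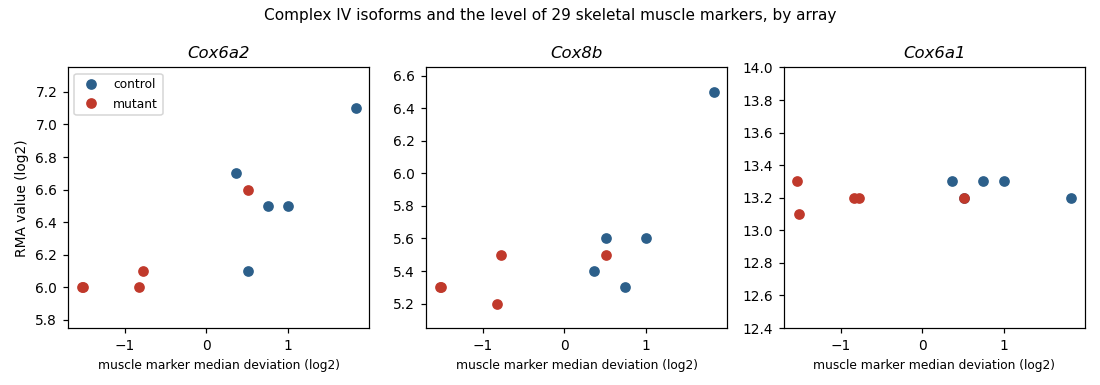
RMA values (log2, vertical) of Cox6a2, Cox8b and Cox6a1 in each array against the median deviation of 29 skeletal muscle markers in the same array (log2, horizontal), control in blue and mutant in red. Mutant replicate 4, at a muscle deviation of 0.51, has the highest mutant value of Cox6a2 (6.6), and control replicate 5, at 1.83, has the highest values of Cox6a2 (7.1) and Cox8b (6.5), while Cox6a1 stays between 13.1 and 13.3; the vertical axes do not start at 0.

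Testis and low-oxygen isoforms had small positive differences, and none was called in the reported fit. Genes with a mean under 5, and those from 5 to under 7, each had a median difference of 0.04. Cox7b2 (mean 3.25) and Cox4i2 (mean 6.21) lie in these dim ranges. Cox8c read 7.6 to 7.9 in mutants and 7.5 or 7.6 in controls (0.20, interval 0.06 to 0.34, limma adjusted p = 0.0735). It was called in the brighter 60% of genes, after renewed quantile normalization, after centring on array medians, with array weights and without mutant replicate 5. Cox6b2 differed by 0.22 (limma adjusted p = 0.228), with control replicate 1 at 8.0 below all other arrays, which read 8.5 to 8.8. Without control replicate 1 the difference of Cox6b2 was 0.115. Cox7b2 read 3.1 to 3.4 in every array. Cox4i2, the form of subunit IV induced by low oxygen, read 6.1 to 6.3 in mutants and 5.9 to 6.4 in controls, a difference of 0.06 (interval -0.14 to 0.26) that was -0.01 without control replicate 4.

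All 17 complex V genes had a negative difference, with a median of -0.12. Of these 1, Atp5g2, fell (5.88%, near the 5.36% of all genes) and 16 were not called. The alpha and beta subunits of the catalytic head, Atp5a1 and Atp5b, each differed by -0.06 (intervals -0.20 to 0.08 and -0.17 to 0.05), and the gamma subunit Atp5c1, the central stalk, by -0.18 (limma adjusted p = 0.113). With arrays centred on their medians Atp5a1 and Atp5b were at 0.02. Atp5g1, Atp5g2 and Atp5g3 encode the same mature c subunit from separate genes. Their differences were -0.20, -0.24 and -0.08, and Atp5g3 read 13.0 in all mutants and 13.0 or 13.1 in controls. Atp5k, a subunit of the membrane part, also had no overlap between groups, at 12.0 or 12.1 in mutants and 12.2 to 12.4 in controls (-0.16, limma adjusted p = 0.113).

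The pattern across arrays was uneven within the controls. The median deviation of the 81 members was -0.06, -0.04, -0.10, -0.07 and -0.07 in mutant replicates 1 to 5 and 0.19, 0.13, -0.01, -0.02 and 0.05 in control replicates 1 to 5. All mutant medians lay below all control medians, but control replicates 3 and 4 were close to the mutants, while control replicates 1 and 2 lay farthest above them. Control replicate 1 alone gave the highest of the 10 values for 37 of 81 members and alone the lowest for 4. In complex III and complex V the groups did not overlap on these medians, at -0.11 to -0.07 against -0.02 to 0.21 and at -0.08 to -0.04 against 0.01 to 0.13. In complexes I, II and IV they overlapped or met. Among the medians of the 5 complexes, control replicate 1 was the lowest control only in complex II, at -0.045 against 0.07 to 0.115 in the other controls.

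**Figure D4:**
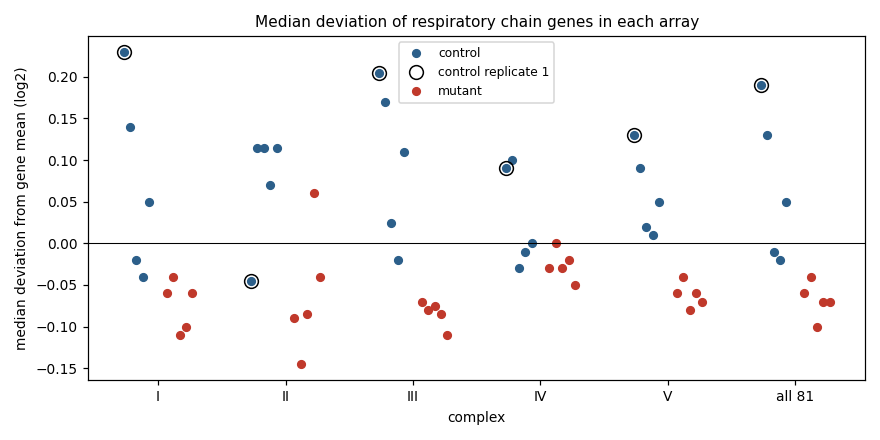
Median deviation (log2) of the genes of each complex, and of all 81 genes, from their means over the 10 arrays; each point is an array, control in blue and mutant in red, and a ring marks control replicate 1. Over all 81 genes mutants lie between -0.10 and -0.04 and controls between -0.02 and 0.19.

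Bright probe sets that the main values did not use gave like differences. The 87 further probe sets of the members had a median difference of -0.12, with 67 negative and 18 positive. Of the 53 with a mean of at least 8, 50 were negative and 2 positive, so most of the positive differences came from dimmer sets. All of these probe sets read the same RNA on the same arrays and add no further samples. Affymetrix marks probe sets that may match several transcripts with s or x in their names, and 21 members were read on such sets. Their median difference was -0.14, against -0.13 for the other 60 members.

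Other genes of mitochondrial energy metabolism were read from lists. The mitochondrial ribosome, which makes the few subunits encoded in mitochondrial DNA, had 20 of 76 genes lower (26.3%, against 5.36% of all genes), 0 higher, 74 negative and a median of -0.20. Mrpl20, Mrpl14 and Mrpl12, proteins of its large subunit, fell by 0.42, 0.32 and 0.40 (limma adjusted p = 0.00761, 0.00926 and 0.0150). Its array medians were -0.125 to -0.075 in mutants and 0.010 to 0.255 in controls, with control replicate 1 again the highest. Of 48 assembly factors, 7 fell (14.6%, against 5.36% of all genes), 0 rose and 41 were not called, with a median of -0.16. Differences were negative for 42 of the 48 and positive for 5. Ndufaf5, Ndufaf6 and Ndufaf2, which assemble complex I, fell by 0.54, 0.44 and 0.52 (limma adjusted p = 0.00367, 0.00810 and 0.0258). Ndufaf3, another complex I factor, named after its values were seen, differed by 0.34 and was not called (limma adjusted p = 0.0527). Ndufaf2 lost its call without any 1 of mutant replicates 1 to 4.

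Protein import genes and chaperones had a median of -0.18. Of these 21 genes 3 fell (14.29%, against 5.36% of all genes), 0 rose and 18 were not called. Timm50 and Timm22, parts of inner-membrane import channels, and Gfer, an oxidase of the intermembrane space, fell by 0.42, 0.28 and 0.30 (limma adjusted p = 0.0102, 0.0253 and 0.0182). Timm22 was not called without mutant replicate 1 or 3, nor Gfer without mutant replicate 3. With the mean of its probe sets Timm50 differed by -0.17 and was not called (limma adjusted p = 0.148). After centring on array medians Timm22 and Gfer were not called, and Gfer was not called after renewed quantile normalization. In a list of 21 genes, mainly carriers and enzymes of ubiquinone synthesis, 4 fell (19.05%, against 5.36% of all genes), 0 rose and 17 were not called. It also holds Vdac1, Vdac2, Vdac3, Atpif1 and the complex III subunit Cyc1, which differed by -0.18 (limma adjusted p = 0.0803). Pdss2, Coq7 and Coq6, which make ubiquinone, fell by 0.30, 0.32 and 0.24 (limma adjusted p = 0.0169, 0.0189 and 0.0195). With the mean of its probe sets Pdss2 differed by -0.06 and was not called (limma adjusted p = 0.495). Coq6 lost its call after renewed quantile normalization and after centring on array medians, at -0.17 and -0.16. In the tricarboxylic acid cycle and pyruvate dehydrogenase 1 of 18 genes fell, 0 rose and 17 were not called, with a median of -0.08. The share that fell, 5.56%, was near the 5.36% of all genes. The gene, citrate synthase (Cs), fell by 0.22 (limma adjusted p = 0.0325). Cs read 10.9 in all 5 mutants and 11.0 to 11.2 in controls, and its call remained only without control replicate 1 or 5 when arrays were left out. With the mean of its probe sets Cs differed by -0.14 (limma adjusted p = 0.0808). Timm22, Coq7, Coq6 and Cs were not called with the level of the Y-linked gene Eif2s3y as a covariate.

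None of 20 genes that control mitochondrial DNA expression and biogenesis was called by limma in either direction. At an unadjusted p under 0.05, 5 of them were lower (25%) and 1 higher, against 15.1% and 10% of all genes. Gabpb1, a subunit of the GABP factor, had the smallest p of this list (-0.52, limma adjusted p = 0.0847), and the list's median was -0.06, a sign that turns on centring by array medians. ND5, the mitochondrially encoded complex I subunit measured here, differed by 0.04 (limma adjusted p = 0.787). A list of genes linked to the hypoxia factor HIF, not all of the respiratory chain, went the other way, with a median of 0.18. Of its 9 genes 3 rose, 0 fell and 6 were not called, while 2.91% of all genes rose. Those not called were Egln3 (0.22), Pdk1 (0.18), Ldha (0.10), Cox4i2 (0.06), Higd1a (0.00) and Lonp1 (-0.10). Bnip3, which promotes removal of mitochondria, and Mxi1, an antagonist of Myc, rose by 0.38 and 0.26 (limma adjusted p = 0.00282 and 0.0189), and Mxi1 lost its call without mutant replicate 3 and with Eif2s3y as a covariate. With the mean of its probe sets Mxi1 differed by 0.15 (limma adjusted p = 0.102). Ndufa4l2, a relative of Ndufa4 that the selection leaves out, rose by 1.12 (limma adjusted p = 0.00152). This list, with Ndufa4l2 in it, was chosen with earlier results of these data known, so its count of 3 is a description only. Cox4i2 is a member of both that list and complex IV.

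**Figure D5:**
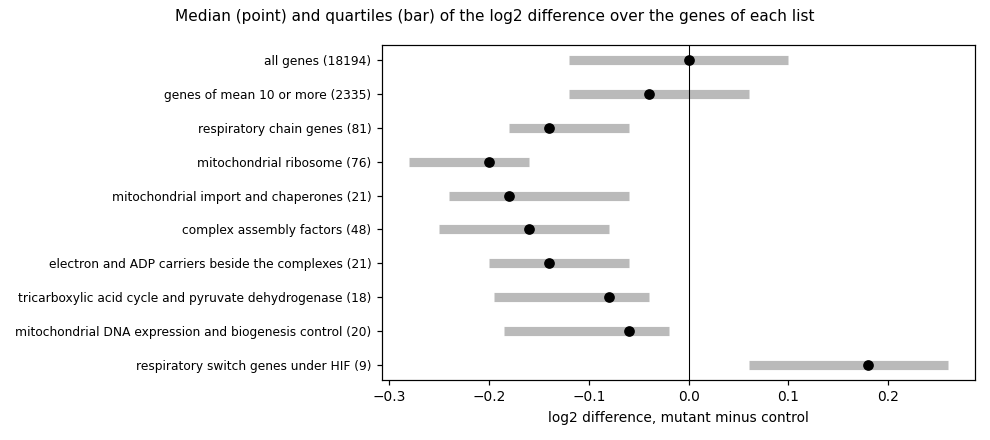
Log2 difference (mutant minus control) over the genes of each list, with the median as a point, the quartiles as a bar and the number of genes in brackets. Medians are 0.00 for all genes, -0.14 for respiratory chain genes, -0.20 for the mitochondrial ribosome and 0.18 for the HIF list.

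Markers of other cell types were read in the same way, and their part in the members' differences was not tested. Over all genes 5.36% were called lower and 2.91% higher. Of 9 erythroid markers 0 were called, with a median difference of -0.20 and mean levels of 7.06 to 7.40 in mutants and 7.36 to 7.90 in controls. Of 11 epithelial markers 0 were called, with mean levels of 10.1 to 10.4 and 9.96 to 10.7. Of 8 endothelial markers 1 was lower, with mean levels of 8.05 to 8.29 and 7.90 to 8.38. Of 8 macrophage markers 0 were called, at 7.44 to 7.70 and 7.33 to 7.86. Muscle markers averaged 5.59 to 7.49 in mutants and 7.34 to 8.91 in controls. Of the 14 mesenchyme markers, 1 was higher (Tbx22, 0.62) and 1 lower (Barx1, -0.34), and their median difference was 0.11. Msx1 differed by -0.84 and was not called (limma adjusted p = 0.147). It read 7.9 in control replicate 2 and 9.2 to 9.9 in the other controls, against 8.0 to 8.9 in mutants. Eif2s3y, a Y-linked gene, read 9.0 to 9.3 in 4 mutants and 5.1 in mutant replicate 5, and 9.0 or 9.1 in control replicates 1 and 4 against 3.2 or 3.3 in the other 3 controls. The sexes of the samples are labelled as not determined, and this level was unevenly spread between the groups (correlation with group 0.51). With it as a covariate 1 member, Sdhb, remained called, the other 4 were not, and the median of the members was -0.13.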

How the data were processed

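Total RNA of the secondary palate of 10 embryonic samples was hybridised to 1 Affymetrix array each. The deposited values are log2 values that the authors made with RMA, per the submitters' processing notes. The sources used here do not give its version or any batches. Values ran from 2.2 to 14.3 with 1 decimal. Of 45101 probe sets, 34958 had 1 gene symbol in the platform annotation and were used, 932 had several and 9211 none. Symbols follow RefSeq (GRCm38.p6) through the Entrez ID, found for 34754.

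Differences were tested with limma 3.58.1 (lmFit, eBayes; R 4.3.3) on the log2 values of 18194 genes, mutant minus control and two-sided. No filter or covariate was used, and p-values were adjusted over all genes by Benjamini-Hochberg; the call is an adjusted p under 0.05. The code of the fit was checked on simulated data with independent noise for each gene, and this check gives no support to the differences reported here. SE is the standard error of the fitted difference. Alternatives were other probe set, filter, scaling, weighting and covariate choices, a replicate block and leaving out each array. Named genes are the called members (at most 6 per complex and direction), the member with the smallest p where a complex has none, fixed core subunits and isoforms, and up to 3 called genes of each list; others are named after their values were seen. The members and lists were chosen with earlier results of these data known.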

Additional observations from a re-analysis of the deposited data

Results flagged for a closer look

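In each group of 5 arrays the highest or lowest array was checked for standing apart from the other 4 (Dixon's criterion at 95%), for the named members and the medians of the complexes. For continuous values chance flags about 1 in 20 groups, and 14 were flagged among 82 groups here. In most cases the distance is 1 rounding step of 0.1. With 1 decimal, 4 equal values and 1 value a step away are always flagged. The count of 14 therefore cannot be set against the rate of 1 in 20.

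Control replicate 1 was the highest control for Ndufs1 (10.5, the others 10.4) and the lowest for Atp5b (12.9, others 13.0), Atp5g3 (13.0, others 13.1), Cox6b2 (8.0, others 8.5 to 8.6) and the complex II median deviation (-0.045, others 0.07 to 0.115). Mutant replicate 4 was the highest mutant for Cox6a2 (6.6, others 6.0 to 6.1), Cox6c (12.2, others 12.1), Atp5a1 (12.8, others 12.7) and Atp5b (13.0, others 12.9), and the lowest for Cox7a2 (12.6, others 12.7). Mutant replicate 3 was the highest mutant for Atp5c1 (12.3, others 12.2). Control replicate 3 was the lowest control for Ndufb8 (11.2, others 11.3) and Cox8c (7.5, others 7.6). Control replicate 5 was the highest control for Cox8b (6.5, others 5.3 to 5.6).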

How the results depend on the processing

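The 5 calls, the absence of upward calls and the counts by complex depended on the setting, while the median difference of all members stayed negative in every fit run, between -0.155 and -0.06. In the cases below the cause was not tested unless stated. The counts of members called lower were 5 with the mean of all probe sets (complex V 0), 6 in the brighter 60% of genes (complex IV 1, and 1 higher), 7 with an intensity trend (complex IV 1), 2 after renewed quantile normalization (complex I 1, complexes III and V 0, and 1 higher), 8 with array weights (complex III 2, complex IV 1, and 1 higher) and 4 with rounding noise (complex V 0). The counts of all genes called lower, 975 in the reported fit, were 904, 1090, 1038, 680, 1333 and 918 in the same order. With the mean of probe sets, 3 of the 5 members were shared with the reported fit. Uqcrq and Atp5g2 were no longer called, and Ndufa5 and Uqcr10 were. Centring on array medians, which move in steps of 0.1 because the values have 1 decimal, shifted the median of all genes by 0.08, turned the share of calls that are lower from 64.8% to 27.0%, and left 474 genes of all and 1 member lower (complexes I, III and V 0) and 1 higher (complex IV). It adds 0.08 to every gene alike, which shows the cause of these shifts. The medians were then -0.06 for all members, -0.07, -0.08 and -0.04 for complexes II, III and V, and 0.02, a turned sign, for complex IV. Centring on array means, added after seeing the data, gave 5 members lower and 61.0% of calls lower. In the brighter 60% of genes 74.7% of calls were lower.

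With the Eif2s3y level as a covariate 1 member and 675 genes of all were lower (complexes I, III and V 0). With the muscle median 0 members and 1 gene of all were (complexes I, II, III and V 0), and the median log2 fold change of complex II turned to 0.0298. The same-numbered arrays of both groups did not deviate together (correlations -0.10 to 0.11, 0 of 10 arrays closest to their own number), so numbers are not taken as pairs; with the replicate block 1 member, Uqcrq, was lower (complexes I, II and V 0), and 365 genes of all tested were lower against 975. Leaving out 1 array gave 1 to 7 members lower and 0 to 1 higher, with 0 to 3 lower in complex I, 0 to 2 in complex III, 0 to 1 in complexes IV and V, and 0 to 1 higher in complex IV. Complex IV medians then ran from -0.115 to -0.06.

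Signs turned for named genes with differences near 0. On centring by medians these were Atp5a1, Atp5b, Cox5a and Cox6a1 (0.02 each), Cox4i1 (0.06), Cox7a2 (0.04) and Sdhd (0.04). Cox7a2 was 0.0063 with array weights and 0.005 without control replicate 1, and Sdhd 0.002 after quantile normalization. With Eif2s3y Cox4i1 was 0.053, Sdhd 0.0066 and Cox7a2l -0.0072. With the muscle median Atp5a1 was 0.022, Atp5b 0.012, Cox4i1 0.061, Cox6a2 0.16, Cox7a2l -0.083, Cox8a 0.050, Cox8b 0.21, Sdhc 0.15, Sdhd 0.10 and ND5 -0.010. Cox7a2l was -0.02 with the mean of probe sets and -0.01 without control replicate 4 or 5. Cox4i2 was -0.01 without control replicate 4, Cox4i1 0.025 without control replicate 2, and ND5 -0.005 without mutant replicate 5 or control replicate 2; over all arrays left out in turn Cox4i1 ran from -0.075 to 0.025, Cox7a2l from -0.01 to 0.065 and ND5 from -0.005 to 0.07.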
